A study of Homo sapiens with 6 samples.

Results

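The TNF superfamily ligands, their receptors and the adaptor proteins that the receptors recruit were examined in UM-SCC1 cells given mimics of miR-204-5p. The genes were chosen by symbol, as every gene of the deposited table named TNFSF or TNFRSF with a number, together with FAS, CD40, LTBR, LTB, NGFR, EDAR, TRADD, TRAF1 to TRAF6, FADD, RIPK1, CASP8 and CFLAR, and 41 of 14959 genes met this rule, which used no measured value. UM-SCC1 is an established human line of head and neck squamous cell carcinoma, and it is the single line used for this experiment, so nothing here was measured in a tumour or in other cells. One group of 3 libraries came from cells transfected with miR-204-5p mimics, synthetic RNAs that a cell uses as it does the mature miRNA, and the other group of 3 from cells transfected with control mimics, which share the transfection but not the sequence. RNA was taken 48 h after transfection in separate experiments, and no other agent or allele distinguishes the groups. With 3 libraries a group, p-values measure the spread between these libraries of 1 line.

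TNF superfamily ligands are mostly trimeric proteins on the cell surface or shed from it, and each clusters 1 or more receptors of the matching family. Receptors with a cytoplasmic death domain can recruit TRADD or FADD and, through them, RIPK1 or caspase-8, the protease that starts the extrinsic path of apoptosis. Receptors without one bind TRAF proteins and pass the signal to NF-kB and stress kinases, decoy receptors bind ligand without passing a full signal, and squamous epithelia use several of these receptors in inflammation, appendage development and cell death.

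A miRNA recognises transcripts mainly through its seed, bases 2 to 8, so the seed and its matches among members are shown first. The mature miRNA is given as RefSeq has it (GRCh38.p14, from the minus strand at chr9:70810031-70810052), with the seed in capitals.
hsa-miR-204-5p: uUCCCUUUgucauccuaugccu

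Matches were sought in the 3'UTRs of GENCODE 29 (GRCh38). The sites below lie in the last exon of each gene and are shown 5′ to 3′ as DNA with the match in capitals. A few are given as examples, from called members and from TRAF1, whose match is a full 8mer (the 7 seed bases followed by A). The 8mers of TNFRSF10D, which was called lower, and TNFSF15, which was not called, are not shown. The first is the site of LTBR (chr12:6391432-6391455, plus strand), which belongs to a longer transcript than the one the table lists.
LTBR: aggagaggAAAGGGAgtcattaac
RIPK1 carries a pair of such sites (chr6:3113702-3113725 and chr6:3114991-3115014, plus strand).
RIPK1, first site: gtgtttggAAAGGGAgagaagaga
RIPK1, other site: acagcccaAAAGGGAgaatggagg
TNFRSF12A (chr16:3022026-3022049, plus strand), CD40 (chr20:46129748-46129771, plus strand, in the UTR of its listed transcript and not in its longest UTR) and TRAF1 (chr9:120902643-120902666, minus strand) hold 1 each.
TNFRSF12A: cagaacagAAAGGGAgcctcacgc
CD40: ggttggttAAAGGGAgatttggct
TRAF1: gatggggaAAAGGGAAgagtaccg

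Expression was deposited as FPKM, the number of fragments scaled to transcript length and library size, with 1 listed transcript per gene. Spearman correlations of FPKM across all genes were 0.9899 to 0.9908 within groups and 0.973 to 0.976 between groups, and between 14689 and 14798 genes were above 0 in a library. Fragment counts are not part of the table, and the smallest steps between low values gave relative depths only, with the deepest library at 1.26 times the shallowest and the groups overlapping. All 8 squamous epithelial markers had a mean above 1 FPKM, and their summed FPKM was 869 to 964 in mimics libraries and 988 to 1022 in control libraries. Of these markers, 3 were called higher and 4 lower, TP63, which maintains basal epithelial cells, among the latter (27.4 ± 3.19 against 55.9 ± 1.48 FPKM, SD, n = 3). Of 9 leukocyte markers, 8 had a mean below 1 FPKM. Their summed FPKM was 14.3 to 17.4 in the mimics group and 18.5 to 19.1 in the control group, most of it CD14, a myeloid marker, which was called lower (12.4 ± 0.965 against 16.3 ± 0.423). The other 8 were not called, and their means did not move one way. PTPRC, which marks nearly all leukocytes, had 0.293 ± 0.220 in the mimics group and 0.138 ± 0.0161 in the control group, NKG7 0.976 ± 0.757 and 0.307 ± 0.0635, CD3D 1.07 ± 0.326 and 0.857 ± 0.238, CD3E 0.404 ± 0.386 and 0.227 ± 0.189, and MS4A1 0.101 ± 0.0191 and 0.0543 ± 0.0345, all with higher means in the mimics group, whereas ITGAM and CSF1R had lower ones. For 4 fibroblast markers the sums were 9.81 to 11.6 and 8.58 to 9.41 FPKM, of which COL1A1 made most, and for 3 endothelial markers 0.590 to 0.767 and 0.443 to 0.502. Below 1 FPKM, COL1A2 (0.605 ± 0.0177 against 0.322 ± 0.0297) and PDGFRB (0.359 ± 0.0292 against 0.177 ± 0.0170) were called higher among the fibroblast markers. Of the endothelial markers VWF was called higher (0.457 ± 0.0379 against 0.299 ± 0.0328), and the rest of both lists, COL1A1 included, were not called.

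Of the 41 members, 17 differed between groups with a limma adjusted p under 0.05, 9 higher and 8 lower with miR-204-5p mimics. Over the whole table the same test called 40.8% of genes, 23.9% higher and 16.8% lower, so the members' 41.5% lay near the background. The balance of directions moved with the scaling, and under quantile normalization 3043 genes were higher and 3026 lower over the table, instead of 3578 and 2520, and 7 and 9 among members. For 23 of the 41 members no library of one group lay within the range of the other, as for 53.6% of all genes. Among the 30 members with a mean of at least 1 FPKM, 8 were higher, 7 lower and 18 without overlap, beside 27.7%, 20.1% and 60.3% of the 11504 genes at that level (47.8% called in either direction). On the log2 scale the median change was 0.08 for members and 0.03 for all genes, and the median absolute value 0.18 for both. Changes are differences of log2(FPKM + 1) between group means, which understate the change of genes with low FPKM. Single members stood far from these medians. TNFSF18 ranked 3 and LTB 9 among 14959 genes in log2 fold change from the top, while the member with the greatest decrease, LTBR, ranked 205 from the bottom.

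**Figure D1:**
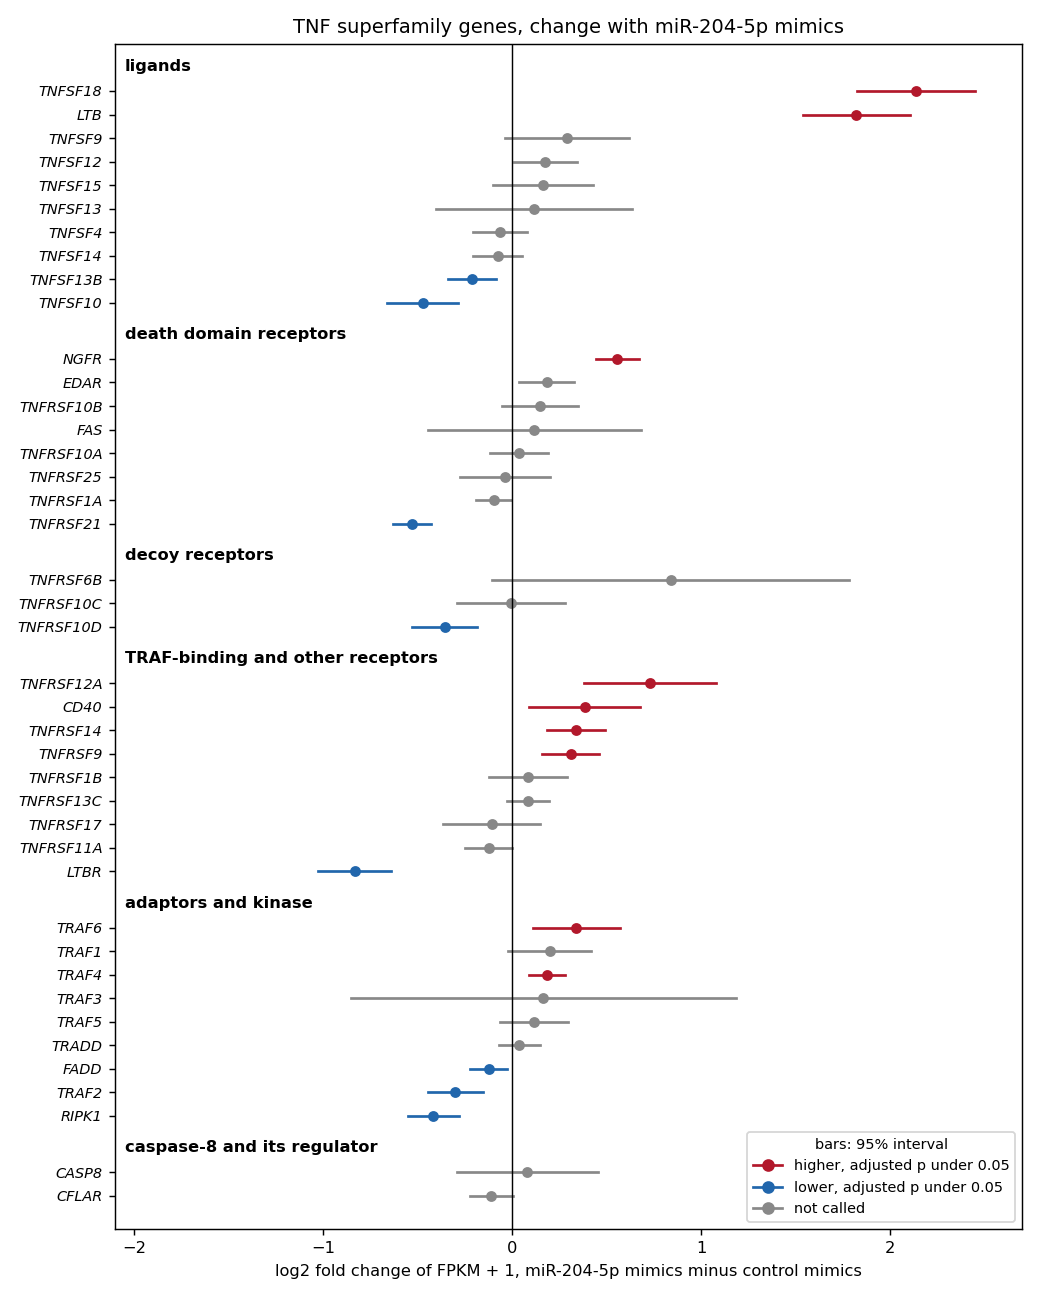
Log2 fold change of FPKM + 1 (x axis, miR-204-5p mimics minus control mimics, 95% interval from limma) for all 41 members, grouped by role. TNFSF18 at 2.14 and LTB at 1.82 lie far to the right of the other members, and LTBR at -0.83 farthest to the left.

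**Figure D2:**
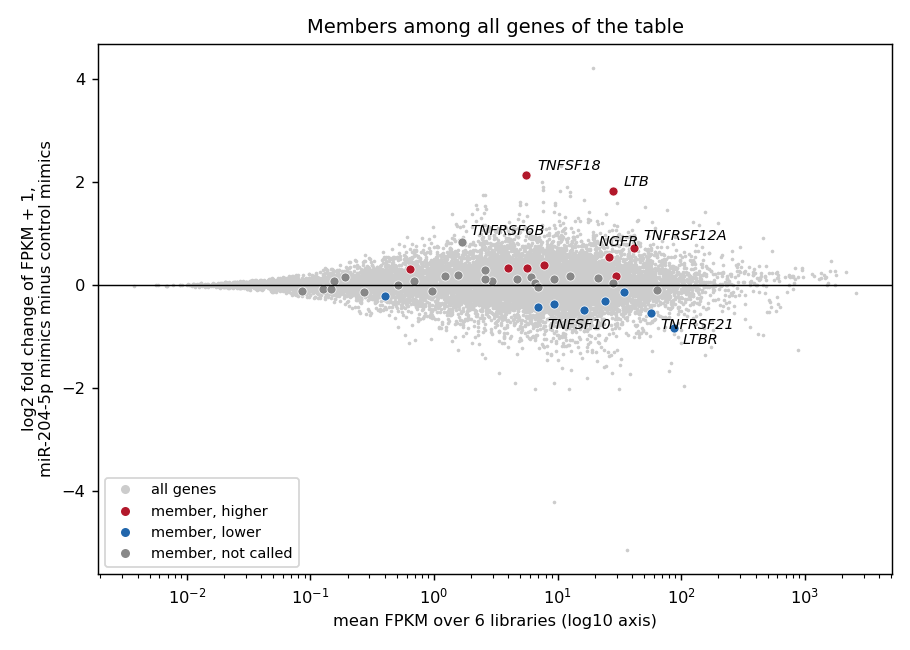
Log2 fold change of FPKM + 1 (y axis) against the mean FPKM over 6 libraries (x axis, log10) for all 14959 genes in light grey and the 41 members in colour. TNFSF18 and LTB lie at the upper edge of the cloud, and most other members lie inside it.

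Among the 10 ligands, 2 rose, 2 fell and 6 were not called (40% called, beside 40.8% of the table). TNFSF18 encodes the ligand of the GITR receptor, known for costimulation of T cells. It was at 11.1, 10.4 and 7.78 FPKM in miR-204-5p mimics replicates 1, 2 and 3 and at 1.44, 1.25 and 1.58 FPKM in control mimics replicates 1, 2 and 3. The lowest mimics library was several times the highest control library. The group means were 9.76 ± 1.75 and 1.42 ± 0.162 FPKM (SD, n = 3), a ratio of 6.86 and a log2 fold change of 2.14 (SE 0.130, limma adjusted p = 0.000106). The gene (ENSG00000120337) lies at chr1:173039960-173050963 on the minus strand, has 1 annotated transcript of 2008 bases and shares no exonic base with another annotated gene. No gene of the deposited table carried the symbol of its receptor, TNFRSF18, so no value of the receptor is given. In RNA from whole cultures, fewer cells expressing a gene and less RNA per cell cannot be told apart, which holds for all values given here.

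LTB, lymphotoxin beta, anchors the lymphotoxin heterotrimer to the membrane and acts through LTBR. Its FPKM was 46.8, 44.4 and 42.2 with miR-204-5p mimics, against 10.01, 14.3 and 11.6 with control mimics, so the groups lay well apart. Of the leukocyte markers, PTPRC and NKG7 were higher in all mimics libraries without a call and CD14 was lower, at the values given above, and their part in the levels of LTB and TNFSF18 was not tested. Means of 44.5 ± 2.32 and 11.97 ± 2.20 FPKM (SD, n = 3) gave a ratio of 3.71 and a log2 fold change of 1.82 (SE 0.119, limma adjusted p = 0.000133). LTB (ENSG00000227507) is read from the minus strand of chr6:31580555-31582425, and no exon of another gene overlaps it. Its promoter in RefSeq (250 bases before to 50 after the start, GRCh38.p14) holds a match to the kappaB motif, the site that NF-kB proteins bind, 86 bases before the start (chr6:31582494-31582519, minus strand, motif in capitals), and it is shown because LTB had the largest increase among members after TNFSF18.
LTB promoter: gggtgtgcGGAAAGTCCCagccaggt

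The ligands that fell were TNFSF10 and TNFSF13B. TNFSF10, the death ligand TRAIL, was at 13.5, 12.96 and 14.02 FPKM with miR-204-5p mimics and 17.4, 21.4 and 18.7 FPKM with control mimics, and all mimics libraries were below all control libraries. It fell by 0.47 on the log2 scale (SE 0.0778, limma adjusted p = 0.00387), from 19.2 ± 2.03 to 13.5 ± 0.530 FPKM (SD, n = 3). TNFSF13B, the B cell survival factor BAFF, was low throughout, at 0.346, 0.329 and 0.228 FPKM against 0.463, 0.508 and 0.553 FPKM. It fell by 0.21 on the log2 scale (limma adjusted p = 0.0186), without overlap, and the adjusted p rose to 0.0519 without control mimics replicate 2 and 0.0594 without control mimics replicate 3.

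Of the ligands without a call, TNFSF12, the ligand TWEAK, was at 13.3, 12.8 and 13.9 FPKM with miR-204-5p mimics, against 12.7, 11.7 and 10.7 with control mimics. The libraries did not overlap, yet the limma adjusted p was 0.0843 (log2 fold change 0.18, 95% interval 0.01 to 0.34), and TNFSF12 passed the threshold without control mimics replicate 1 (0.23, adjusted p = 0.0388). TNFSF9, which binds TNFRSF9 on activated lymphocytes, had 3.17, 2.44 and 3.25 against 2.74, 2.24 and 1.74 FPKM (log2 fold change 0.29, 95% interval -0.04 to 0.62, limma adjusted p = 0.138). TNFSF13, the ligand APRIL, spread from 1.70 to 4.10 FPKM within the mimics group alone (1.70, 4.10 and 2.52 against 2.36, 2.48 and 2.26, limma adjusted p = 0.708). TNFSF12 and TNFSF13 share exons with an annotated readthrough transcript of both, so fragments of either gene could have been assigned to it. TNFSF4, TNFSF14 and TNFSF15, known mainly from immune cells and endothelium, had group means between 0.0957 and 0.261 FPKM with limma adjusted p-values of 0.423, 0.299 and 0.289.

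**Figure D3:**
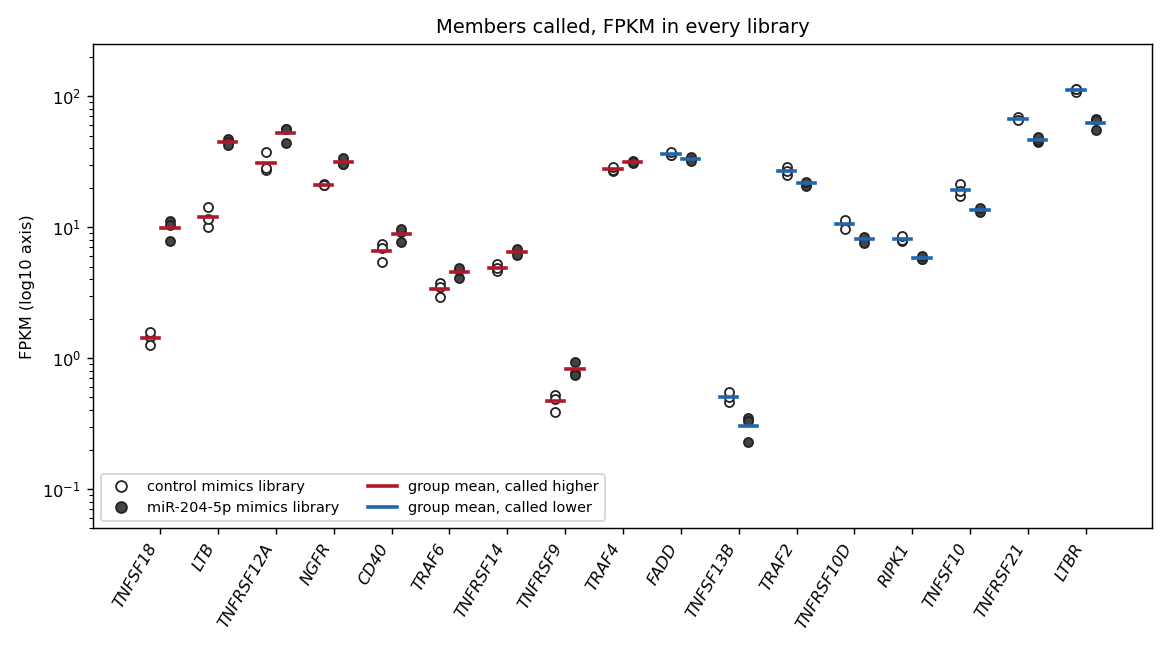
FPKM (y axis, log10) in each of the 3 control mimics libraries (open circles) and 3 miR-204-5p mimics libraries (filled circles) for the 17 members called, ordered by log2 fold change, with coloured bars at the group means. In all 17 the groups are separate, widely for TNFSF18 and LTB and narrowly for FADD.

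The death domain receptors held 1 increase, 1 decrease and 6 members without a call (25% called, beside 40.8% of the table). NGFR, the low-affinity receptor of neurotrophins, also used as a marker of basal squamous cells, rose from 20.8, 21.2 and 21.1 FPKM with control mimics to 30.5, 30.3 and 33.4 FPKM with miR-204-5p mimics. The 3 control libraries lay close together, and every mimics library was above them. The log2 fold change was 0.56 (SE 0.0476, limma adjusted p = 0.000318), between means of 21.01 ± 0.184 and 31.4 ± 1.74 FPKM (SD, n = 3). TNFRSF21, a death receptor studied mainly in neurons and lymphocytes, differed in the other direction, with 44.8, 45.9 and 48.4 FPKM under miR-204-5p mimics and 67.2, 69.3 and 65.9 under control mimics. It fell by 0.53 on the log2 scale (SE 0.0420, limma adjusted p = 0.000245), with means of 46.4 ± 1.86 and 67.4 ± 1.72 FPKM (SD, n = 3). TNFRSF21 (chr6:47231532-47309905, minus strand) has 1 annotated transcript and no seed match of 7 or more bases in its 3'UTR.

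The receptors that bind TNF, Fas ligand and TRAIL to start cell death were not called with all 6 libraries and the deposited scaling. TNFRSF1A, the main receptor of TNF, was at 61.7, 58.5 and 63.4 FPKM against 65.9, 64.9 and 65.8 FPKM. The libraries did not overlap, and the log2 fold change was -0.10 (SE 0.0395, limma adjusted p = 0.0918). With libraries scaled to equal medians it was -0.12, just past the threshold (adjusted p = 0.0495). FAS had 11.9, 6.65 and 11.2 FPKM with miR-204-5p mimics, against 8.15, 7.34 and 11.4 with control mimics, a spread within groups wider than the distance between them (log2 fold change 0.12, 95% interval -0.45 to 0.68, limma adjusted p = 0.727). The transcript listed for FAS is annotated as a target of nonsense-mediated decay, and 380 exonic bases of FAS overlap ACTA2 on the opposite strand, which rose from 10.8 ± 0.875 to 15.9 ± 0.984 FPKM (limma adjusted p = 0.00196). Whether counting used the strand is not given in the sources used here.

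Both TRAIL receptors that carry a death domain had values that overlapped between groups. TNFRSF10A was at 6.17, 7.05 and 6.97 against 6.45, 6.70 and 6.41 FPKM, a log2 fold change of 0.04 (95% interval -0.12 to 0.19, limma adjusted p = 0.674). TNFRSF10B was at 23.9, 19.6 and 24.2 against 19.3, 20.7 and 20.6 FPKM, a log2 fold change of 0.15 (95% interval -0.06 to 0.35, limma adjusted p = 0.214). Its low library was mimics replicate 2, without which the log2 fold change was 0.24 and the adjusted p 0.0189. EDAR, the ectodysplasin receptor of skin appendages, missed the threshold narrowly, at 1.23, 1.42 and 1.48 against 1.10, 1.12 and 1.05 FPKM without overlap (log2 fold change 0.18, limma adjusted p = 0.0507), and passed it without mimics replicate 1 (adjusted p = 0.0277) or with a variance prior that had no trend (0.0363). TNFRSF25, the receptor of TNFSF15, had 7.59, 6.30 and 6.50 against 7.63, 7.31 and 6.11 FPKM (log2 fold change -0.04, 95% interval -0.28 to 0.20), and it shares exonic bases with PLEKHG5 on its own strand and ESPN on the other.

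Of the 3 decoy receptors, 1 was called (33.3%, beside 40.8% of the table). TNFRSF10D, which binds TRAIL but has a truncated death domain, fell. Its libraries held 8.16, 8.42 and 7.60 FPKM with miR-204-5p mimics and 10.8, 9.66 and 11.4 FPKM with control mimics, with every mimics library lower. The decrease was from 10.6 ± 0.873 to 8.06 ± 0.419 FPKM (SD, n = 3), and TNFRSF10D fell by 0.36 on the log2 scale (SE 0.0717, limma adjusted p = 0.00848). TNFRSF10C, the other TRAIL decoy, had 0.511 ± 0.142 and 0.522 ± 0.223 FPKM (SD, n = 3) with overlapping libraries (limma adjusted p = 0.977), and shares exonic bases with AC107959.5 on its own strand, which makes its level uncertain. TNFRSF6B, a soluble decoy for Fas ligand, TNFSF14 and TNFSF15, had the widest spread, with 1.87, 2.06 and 3.02 FPKM against 2.12, 0 and 0.983 FPKM, and is listed at 0 in control mimics replicate 2. Its log2 fold change of 0.84 had a 95% interval of -0.11 to 1.78 (limma adjusted p = 0.138), and without control mimics replicate 1 it was 1.22 with an adjusted p of 0.0330. All 1141 bases of its transcript lie inside exons of the readthrough gene RTEL1-TNFRSF6B on the same strand, so the level of TNFRSF6B is uncertain.

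Of the 9 receptors that signal through TRAF proteins, 4 were higher, 1 was lower and 4 were not called (55.6% called, beside 40.8% of the table), and receptor classes were not tested against each other. TNFRSF12A, the TWEAK receptor, which is known to be induced by growth factors and injury, rose the most. It was at 55.7, 43.9 and 56.2 FPKM with miR-204-5p mimics and 37.6, 27.3 and 28.2 FPKM with control mimics, and the lowest mimics library was above the highest control library. The means of 51.9 ± 6.96 and 31.04 ± 5.68 FPKM (SD, n = 3) gave a ratio of 1.67 and a log2 fold change of 0.73 (SE 0.146, limma adjusted p = 0.00830). The value rests on a listed transcript of 648 bases where the longest coding one has 1133. Its transcript carries the seed match shown above and was higher with the mimics. TNFRSF14, the herpesvirus entry mediator and a receptor of TNFSF14, rose from 4.63, 5.22 and 4.84 to 6.46, 6.76 and 6.15 FPKM, a log2 fold change of 0.34 (SE 0.0640, limma adjusted p = 0.00670), and its libraries did not overlap. Its listed transcript has 660 bases and the longest coding one 1707.

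CD40, which on epithelial cells induces cytokines and adhesion molecules, was at 7.76, 9.23 and 9.66 FPKM with miR-204-5p mimics and 5.45, 7.44 and 6.91 FPKM with control mimics. It rose by 0.38 on the log2 scale (SE 0.122, limma adjusted p = 0.0451) with a narrow gap between groups. The call was lost without control mimics replicate 1 or 3 or mimics replicate 2 or 3, each left out alone, and over all left-out fits the adjusted p was 0.0372 to 0.126. TNFRSF9, a costimulatory receptor of lymphocytes, was low and rose from 0.391, 0.525 and 0.486 to 0.771, 0.745 and 0.939 FPKM (log2 fold change 0.31, SE 0.0630, limma adjusted p = 0.00891). Its promoter holds a match to the kappaB motif 74 bases before the start (chr1:7940896-7940921, minus strand, GRCh38.p14), shown as an example from a member called higher. Matches in TNFRSF14, also called higher, and in members without a call are named further on and not shown.
TNFRSF9 promoter: gctgtggtGGGAATTTCCcatgagac

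LTBR, the receptor of lymphotoxin, was the most abundant member per length and had the largest decrease. It was at 67.3, 54.7 and 65.6 FPKM with miR-204-5p mimics and 108, 114 and 114 FPKM with control mimics, and the highest mimics library was far below the lowest control library. LTBR fell by 0.83 on the log2 scale (SE 0.0803, limma adjusted p = 0.000487), from 112 ± 3.51 to 62.5 ± 6.81 FPKM (SD, n = 3), which is a control level 1.79 times that of the mimics. LTBR (ENSG00000111321, chr12:6375429-6391224, plus strand) is listed with a transcript of 1665 bases and 10 exons, shorter than the longest coding one of 2260 bases. SCNN1A overlaps 422 of its exonic bases on the opposite strand and was itself higher with miR-204-5p mimics (26.8 ± 3.67 against 19.8 ± 1.53 FPKM, limma adjusted p = 0.0202). The remaining receptors of this class were below 1 FPKM and without a call. TNFRSF1B, TNFRSF11A, TNFRSF13C and TNFRSF17, most of them receptors of lymphoid or bone cells, had group means between 0.0402 and 0.743 FPKM and limma adjusted p-values of 0.482, 0.0955, 0.204 and 0.464, and TNFRSF17 is listed at 0 in 2 libraries.

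Of the 9 adaptors, counting the kinase RIPK1, 2 rose, 3 fell and 4 were not called. The called share was 55.6%, beside 40.8% of the table and 47.8% of genes with a mean of at least 1 FPKM. RIPK1, which joins the receptor complex and can drive NF-kB, apoptosis or necroptosis, was at 5.71, 5.67 and 6.03 FPKM with miR-204-5p mimics and 7.80, 7.96 and 8.52 FPKM with control mimics, with no overlap. It fell by 0.42 on the log2 scale (SE 0.0563, limma adjusted p = 0.00174), from 8.09 ± 0.379 to 5.81 ± 0.197 FPKM (SD, n = 3), and its 3'UTR holds both seed matches shown above. TRAF2, which brings ubiquitin ligases to many receptors of the family, was at 21.8, 20.7 and 22.1 against 24.8, 28.7 and 26.7 FPKM and fell by 0.30 on the log2 scale (SE 0.0606, limma adjusted p = 0.00865). Its values rest on a listed transcript of 709 bases where the longest coding one has 2264. FADD, the bridge from death receptors to caspase-8, was at 33.4, 34.1 and 32.03 against 35.6, 35.8 and 37.4 FPKM, a small difference without overlap. FADD fell by 0.12 on the log2 scale with a limma adjusted p of 0.0495, and leaving out any 1 of the 6 libraries removed the call (adjusted p 0.0601 to 0.134).

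TRAF6 and TRAF4 were the adaptors that rose. TRAF6, which CD40 and receptors of the interleukin-1 family use, was at 4.06, 4.72 and 4.90 FPKM with miR-204-5p mimics and 2.95, 3.74 and 3.50 FPKM with control mimics (log2 fold change 0.34, SE 0.0959, limma adjusted p = 0.0299). All mimics libraries were higher, and the call was lost without control mimics replicate 1 or 3 or mimics replicate 2 or 3 (adjusted p up to 0.0899). TRAF4, a member of the family found in epithelial junctions, was at 31.9, 31.04 and 31.5 against 26.97, 27.1 and 28.6 FPKM, a log2 fold change of 0.19 (SE 0.0388, limma adjusted p = 0.00996) that kept its call in all 6 left-out fits.

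The adaptors without a call included TRADD, the first adaptor of TNFRSF1A, at 29.6, 28.01 and 28.2 against 27.5, 29.2 and 27.00 FPKM (log2 fold change 0.04, 95% interval -0.07 to 0.15, limma adjusted p = 0.559). TRAF3, which keeps the kinase of the noncanonical NF-kB path low, was at 10.1, 3.84 and 5.20 FPKM with miR-204-5p mimics and 3.90, 9.81 and 3.47 FPKM with control mimics. A single high library in each group, mimics replicate 1 and control mimics replicate 2, set that spread, and the 95% interval of -0.85 to 1.18 spans both directions. TRAF5 had 4.99, 4.73 and 5.10 against 3.99, 4.69 and 4.76 FPKM (limma adjusted p = 0.258). TRAF1, itself known as an NF-kB-induced gene, had 1.40, 1.99 and 1.84 against 1.35, 1.45 and 1.36 FPKM (a change of 0.20 in log2, limma adjusted p = 0.131), and passed the threshold without mimics replicate 1 (0.29, adjusted p = 0.0195).

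Neither caspase-8 nor its regulator was called by limma, and 0 of the 2 had an unadjusted p under 0.05, beside 7395 of 14959 genes of the table. CASP8 was at 2.76, 3.08 and 3.23 FPKM with miR-204-5p mimics and 3.01, 1.99 and 3.56 FPKM with control mimics, with a 95% interval of -0.29 to 0.45 around a change of 0.08 in log2 (limma adjusted p = 0.717). CFLAR, the inactive homologue that restrains caspase-8, was at 0.931, 0.865 and 0.896 against 1.04, 1.08 and 1.01 FPKM, without overlap and with a limma adjusted p of 0.109 (log2 fold change -0.11). Under quantile normalization CFLAR was called lower (-0.18, adjusted p = 0.0198).

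Ligands and their receptors can be set side by side. For lymphotoxin, the log2 fold change was 1.82 for LTB and -0.83 for LTBR, and the ratio of their mean FPKM (LTB over LTBR) was 0.107 with control mimics and 0.711 with miR-204-5p mimics. For TRAIL, it was -0.47 for TNFSF10, -0.36 for the decoy TNFRSF10D, and 0.04 and 0.15 for TNFRSF10A and TNFRSF10B, which were not called. For TWEAK, TNFSF12 had 0.18 without a call and TNFRSF12A 0.73. TNFSF9 had 0.29 without a call and TNFRSF9 0.31. The differences between members of a pair were not tested.

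A 7mer or 8mer seed match stood in the longest 3'UTR of 9 of 41 members (22.0%), against 27.1% of the 14664 genes of the table with an annotated 3'UTR. Of these 9, LTBR, RIPK1 and TNFRSF10D were called lower and TNFRSF12A higher, while TNFRSF10A, TRAF1, TNFRSF11A, TNFSF14 and TNFSF15 were not called. The other 32 members counted 5 lower and 8 higher. Over all genes, 27.0% of those with such a match were called lower and 16.4% higher, and 13.4% and 27.2% of those without. Their median change on the log2 scale was -0.08 for the 9 members and 0.12 for the other 32, and -0.03 and 0.06 over all genes with and without a match. TNFRSF10D holds an 8mer, RIPK1 the 7mers shown above, and the 7mer of LTBR lies beyond the end of its listed transcript. The 3'UTR of that listed transcript holds no match of 7 or more bases. CD40, called higher and counted among the 32, has a 7mer in the 3'UTR of its listed transcript but not in its longest 3'UTR. Neither LTB, TNFSF18, TNFRSF21 nor NGFR has a match of 7 or more bases in its longest 3'UTR. A match is a description of letters and not a site shown to act.

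The kappaB motif, searched on both strands with overlapping matches counted once, was found in the RefSeq promoters of 9 of the 29 members that the promoter table holds (31.0%), against 17.4% of 11452 genes of the deposited table and 13.3% of 27305 genes in all. These 9 were LTB, TNFRSF9 and TNFRSF14, which were called higher, and CFLAR, FAS, TRAF3, TNFSF13, TNFSF14 and TNFRSF25, which were not called. Among the called members in the promoter table, TNFSF18, TRAF4 and TRAF6 (higher) and TNFSF10, TNFSF13B, TNFRSF21, LTBR, TRAF2, RIPK1 and FADD (lower) held no match. The called members CD40, NGFR, TNFRSF12A and TNFRSF10D are not in the promoter table. Of all 41 members 41.5% were called, beside 40.8% of the deposited table, and whether the motif goes with a call was not tested.

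**Figure D4:**
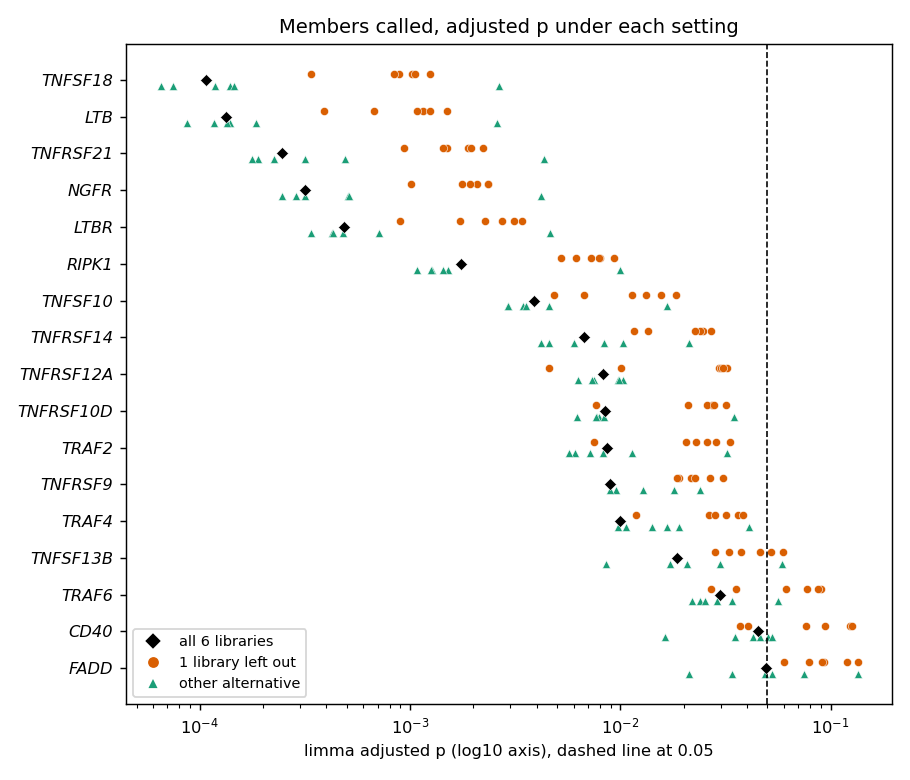
Limma adjusted p (x axis, log10) of the 17 members called, with all 6 libraries (black diamonds), with 1 library left out (orange circles) and under the other alternatives (green triangles), and a dashed line at 0.05. Points of TNFSF13B, TRAF6, CD40 and FADD cross the line, and those of the other 13 members do not.

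Of the 17 members called, 13 kept their call in all 6 fits that left out 1 library and under every other alternative run. The exceptions were TNFSF13B, TRAF6, CD40 and FADD, as the plot of adjusted p-values by setting shows. TNFSF18 kept a log2 fold change of 2.05 to 2.28 and LTB one of 1.71 to 1.95 whichever library was left out, and LTBR one of -0.89 to -0.74. Called members that share exonic bases with a gene annotated on the opposite strand were LTBR, TNFRSF12A, TNFRSF14, NGFR, TRAF4, RIPK1 and FADD, and without strand in the counting the reads of such partners cannot be told apart. An exact permutation test of a single gene over 3 against 3 libraries cannot give a two-sided p below 0.1, which each of the 17 reached. Any gene whose groups do not overlap reaches that value, as did 23 of the 41 members, and 53.6% of all genes had no overlap.

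Genes of the same pathways that are not members were followed in lists written for this purpose. Of 54 such genes in the table, 8 were called higher and 11 lower, 35.2% together beside 40.8% of the table. Among genes known to be induced by NF-kB, 4 of 10 were higher and 1 was lower (50% called), beside 23.9% and 16.8% of the table. The median log2 fold change was 0.38 beside 0.03 for all genes. That median covers the 10 listed genes only, and genes that NF-kB induces also stand elsewhere in this report. Of those, BIRC3 had a log2 fold change of 1.25, the feedback inhibitor TNFAIP3 -0.45, and the member TRAF1 0.20 without a call. Whether genes induced by NF-kB rose as a class was not tested. The 5 genes of this list without a call had log2 fold changes of -0.12 to 0.39. IL6, an inflammatory cytokine, increased by 0.93 on the log2 scale, with 1.10 ± 0.195 FPKM against 0.0998 ± 0.0455 in control libraries (SD, n = 3, limma adjusted p = 0.000280). TNFAIP2, a TNF-induced gene, had 167 ± 3.84 against 97.8 ± 14.4 FPKM, an increase of 0.78 (limma adjusted p = 0.00134), and ICAM1, an adhesion molecule, 45.7 ± 0.144 against 31.8 ± 1.00 FPKM, an increase of 0.51 (limma adjusted p = 0.000174), both on the log2 scale. SOD2, a mitochondrial antioxidant enzyme, fell by 0.36 on the log2 scale (limma adjusted p = 0.0144), taken from the row of higher mean because the symbol occurs more than once.

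Subunits and activating kinases of NF-kB split, with 3 of 13 higher and 4 lower (53.8% called, beside 40.8% of the table). MAP3K14, the kinase of the noncanonical path that LTBR and CD40 use, rose by 0.50 on the log2 scale, with 9.62 ± 0.321 against 6.50 ± 0.362 FPKM (limma adjusted p = 0.000922), and the kinase subunits CHUK and IKBKG had log2 fold changes of 0.31 and 0.25 (adjusted p = 0.00547 and 0.0165). The subunits REL and RELB fell by 0.53 and 0.34 and the kinase IKBKB fell by 0.24 on the log2 scale (limma adjusted p = 0.00470, 0.00796 and 0.0463). Of 15 inhibitors and ubiquitin regulators, 1 was higher and 1 lower (13.3% called). BIRC3, a ubiquitin ligase that TRAF2 recruits and NF-kB induces, rose by 1.25 on the log2 scale, with 14.8 ± 1.13 against 5.66 ± 0.230 FPKM (limma adjusted p = 7.42e-05), while TNFAIP3, a feedback inhibitor of NF-kB, fell by 0.45 on the log2 scale (limma adjusted p = 0.00313).

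Among 10 genes that carry out cell death after receptor signalling, 0 were called higher by limma and 4 lower. At an unadjusted p under 0.05 the count was 5, all of them lower, beside 7395 of 14959 genes of the table in either direction. The called share was 40% of this list, near the 40.8% of the table. APAF1, the scaffold of the apoptosome, fell by 0.32 and the necroptosis effector MLKL fell by 0.24 on the log2 scale (limma adjusted p = 0.00680 and 0.0386). Of 6 superfamily genes outside the rule, 1 was called (16.7%), though without control mimics replicate 2 the count was 3. EDARADD, the adaptor of EDAR, fell by 0.44 on the log2 scale (limma adjusted p = 0.00530). TNF itself was low, at 0.214 ± 0.0627 FPKM with miR-204-5p mimics, against 0.135 ± 0.119 with control mimics (limma adjusted p = 0.382).

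**Figure D5:**
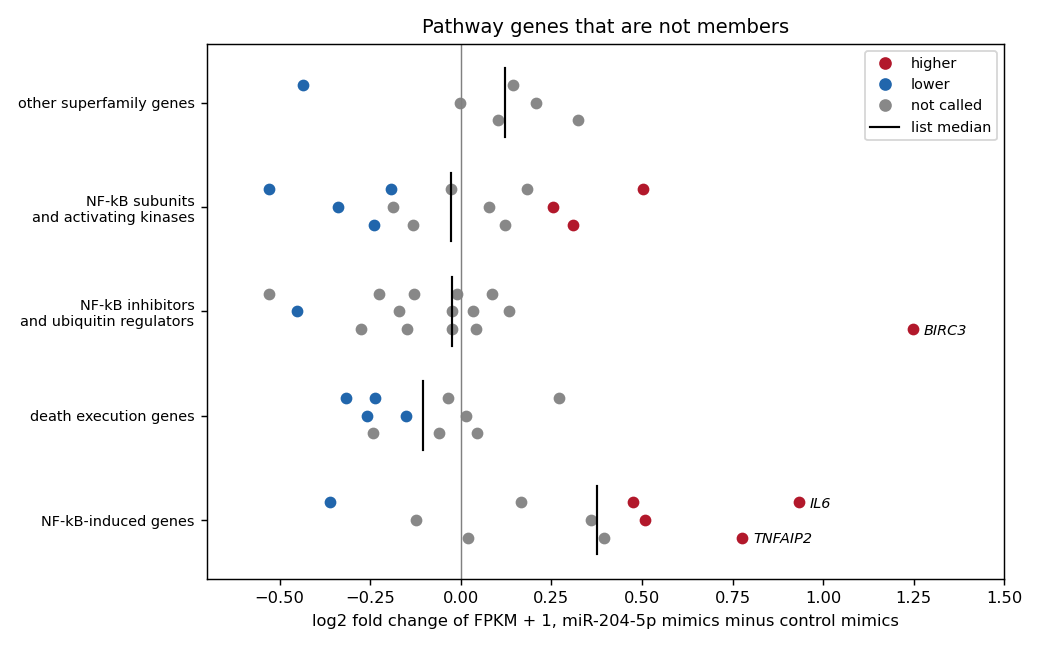
Log2 fold change of FPKM + 1 (x axis, miR-204-5p mimics minus control mimics) of 54 pathway genes that are not members, 1 point per gene, in 5 lists with black bars at the list medians. BIRC3 at 1.25, IL6 at 0.93 and TNFAIP2 at 0.78 lie farthest to the right, and the called death execution genes all lie left of 0.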

How the data were processed

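Sequencing libraries (Illumina TruSeq) were prepared from the RNA of 6 transfected UM-SCC1 cultures. Per the submitters' processing notes, HISAT2 and StringTie were used on hg38; versions are not given in the sources used here. The deposited table gives 1 FPKM value per gene and library, computed by the authors for 1 listed transcript, and holds no counts, so edgeR, which the study used, could not be rerun. Columns with the authors' own log2 ratios, p-values and FDR were not used.

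Here log2(FPKM + 1) was compared with limma 3.58.1 (R 4.3.3), two-sided, using lmFit and a trended eBayes, over all 14959 genes, without filter or further scaling, with Benjamini-Hochberg adjustment and a threshold of 0.05. The code was checked on simulated data. Symbols were taken from the table, and all 41 listed transcripts were found in GENCODE 29 with the same coordinates. The longest annotated 3'UTR of every gene (GENCODE 29) was searched for matches to the seed, and sequences of miR-204-5p and promoters were read from RefSeq (GRCh38.p14). Depth per library is known only as a ratio, so no counting interval is given. The remaining steps ran in Python 3.11.15 with pandas 2.3.3, numpy 2.4.6 and scipy 1.17.1.

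Every member could be named, with single libraries given where the mean was at least 1 FPKM or the adjusted p under 0.05. Of each pathway list, up to 3 called genes per direction were named, those with the largest absolute change. One gene that this rule names is not reported here. The members and lists were chosen with earlier results of these data known. Alternatives were a pseudocount of 0.1, genes of mean FPKM at least 1, a block for the replicate number, equal medians, quantile normalization, eBayes without trend, and each library left out.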

Additional observations from a re-analysis of the deposited data

How the results depend on the processing

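The number of members called, 17 with all libraries, was 13 to 18 with 1 library left out and 15 to 17 under the other alternatives, and over all genes 6098 became 4971 to 5371 and 5096 to 6091. Under equal medians 3335 genes were higher and 2756 lower, and under quantile normalization 3043 and 3026, beside 3578 and 2520. The median of all genes moved by at most 0.03 on the log2 scale under any setting. The replicate numbers did not pair the samples: correlations of deviations between libraries of the same number were -0.04, -0.02 and -0.11 over 11504 genes, and libraries did not correlate best with their own number. With the replicate number as a block 15 members were called, 9 higher and 6 lower, TNFSF13B (adjusted p = 0.0586) and FADD (0.134) being lost, and 2 of the 4 called death execution genes remained. The superfamily genes outside the rule numbered 1 to 3 called with 1 library left out. Of 481 values of single members under an alternative, 437 kept direction and side of the threshold, 23 lost the call, 8 gained one (TNFRSF1A under equal medians, CFLAR under quantile normalization, EDAR without the trend and 5 with 1 library left out) and 13 changed sign, all in members without a call. With 1 library left out, the log2 fold change ranged -0.023 to 0.36 for FAS, -0.014 to 0.14 for TNFRSF1B, -0.19 to 0.0179 for TNFRSF17, -0.091 to 0.21 for CASP8, -0.17 to 0.57 for TRAF3, -0.13 to 0.33 for TNFSF13, -0.094 to 0.11 for TNFRSF10C and -0.12 to 0.0169 for TNFRSF25. TNFRSF10C was at 0.0052 with a pseudocount of 0.1. The causes were not tested. CD40 lost its call under equal medians (adjusted p = 0.0506), and CD40 and TRAF6 under quantile normalization (0.0524 and 0.0561). Joining all 3'UTRs of a gene gave 11 members with a 7mer or 8mer, CD40 and CFLAR added, beside 9. Low members are limited by depth that is known only as a ratio, and 11 of 41 had a mean below 1 FPKM.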

Other observations

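Several members are neighbours on a chromosome, and their values can be set side by side. TNFSF18 (chr1:173039960-173050963) and TNFSF4 (chr1:173183734-173205558), the ligand of another T cell costimulator, are read from the same strand of chromosome 1. TNFSF18 rose to 9.76 ± 1.75 FPKM with miR-204-5p mimics, while TNFSF4 was at 0.121 ± 0.0384 against 0.173 ± 0.0779 FPKM (SD, n = 3, limma adjusted p = 0.423). LTB lies in the major histocompatibility complex, as TNF does, and the log2 fold change was 1.82 for LTB and 0.10 for TNF (limma adjusted p = 0.000133 and 0.382). LTBR (chr12:6375429-6391224) and TNFRSF1A (chr12:6328757-6342114) lie on chromosome 12, where LTBR fell by 0.83 on the log2 scale and TNFRSF1A had -0.10 without a call. The differences between neighbours were not tested.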
